A study of Mus musculus with 32 samples.

Results

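Lysosome, V-ATPase and autophagy genes were followed in the striatum of YAC128 and wild-type (WT) mice. The set is a named list of 39 genes, grouped by function, out of 55415 features counted per library. It holds 15 genes of the vacuolar proton pump (V-ATPase), 5 of the V0 sector, 8 of the V1 sector and 2 accessory subunits. A further 13 genes encode lysosomal proteins, 5 of the membrane and 8 of the lumen, 10 belong to the autophagy pathway, and the last is the transcription factor gene Tfeb. All 39 passed the filter on low counts, as did 10679 genes in all.

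Each of 4 groups held 8 libraries, 1 per mouse. YAC128 mice carry human huntingtin with an expanded polyglutamine tract on a yeast artificial chromosome and model Huntington disease, here on a B6 background. One YAC128 group received AON12.1, which per the series title is an antisense oligonucleotide that disrupts a caspase-6 cleavage site of HTT. A further YAC128 group received a scrambled oligonucleotide. The remaining YAC128 group and the WT littermates received artificial cerebrospinal fluid (aCSF). All groups had a cannula in the lateral ventricle and 3 injections of 10 µL, the first at about 6 months and the next ones 2 and 4 weeks after it. The oligonucleotide groups received 500 µg per injection, and tissue was taken at 12 months, directly after an MRI scan. Every group thus carries the surgery and the injections.

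RNA was counted at the 3' end of polyadenylated transcripts, so counts are compared between groups for the same gene and not between genes. Total gene counts ran from 658934 to 1419313 per library, and single members had from 6 counts (Tfeb) to 1041 counts (Map1lc3a) in a library. Levels are given as CPM (counts scaled to library size with TMM factors). Fold changes are log2 values ± SE from edgeR's quasi-likelihood fit of all libraries, and a gene was called at a Benjamini-Hochberg adjusted p under 0.05 over all 10679 genes tested. All 13 listed markers of striatal projection neurons were detected in every group. Their summed level ran from 6598 to 11466 CPM with AON12.1, from 3560 to 8253 CPM with the scrambled oligonucleotide, from 3953 to 7558 CPM in YAC128 aCSF and from 5716 to 11899 CPM in WT.

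Between libraries, reads outside any annotated feature took a varying part of the counts. This no-feature share averaged 23.8% ± 6.70 with AON12.1, 22.1% ± 2.41 with the scrambled oligonucleotide, 25.7% ± 4.92 in YAC128 aCSF and 19.5% ± 4.40 in WT (SD, n = 8 each). In WT, 7 libraries lay at or under 19.2% and replicate 1 stood apart at 30.2%. Replicate numbers follow accession order and serve only as names. The animal numbers in the labels begin with 18 or 19, called series 18 and 19 here, and the labels do not say what that means. Series 18 held 2 AON12.1, 2 scrambled, 4 YAC128 aCSF and 3 WT libraries, and series 19 held 6, 6, 4 and 5.

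The V-ATPase pumps protons into lysosomes, endosomes and synaptic vesicles: its V1 sector, in the cytosol, splits ATP, and its V0 sector, in the membrane, carries the protons. The acid lumen activates cathepsins and other hydrolases, which break down what endocytosis and autophagy deliver. In autophagy, proteins of the ATG8 family are attached to a growing membrane and bind receptors such as p62, which bring cargo, mutant huntingtin aggregates among it. TFEB switches on many lysosomal genes through a palindromic promoter element with the core CACGTG. Neurons use the pump heavily for loading synaptic vesicles, while microglia are rich in lysosomal hydrolases.

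Promoter windows of 300 bases, from 250 bases before to 50 bases after the start site, were given by RefSeq (GRCm38.p6) for 32 of the 39 members. Of these, 9 (28.1%) held the core CACGTG, against 8.09% of 27025 genes with a window. The longer palindrome TCACGTGA, which contains that core and reads alike on both strands, was found in 4 members (12.5%), against 1.12% of all genes. Among 111 other genes of the pathway with a window, 23.4% held the core and 10.8% the palindrome. The 4 members with the palindrome and Lamp1, which held the core 4 times, are shown because their products stand at separate steps (the pump, its proteases and the membrane). Capitals mark 1 match in each, and further matches stay in lower case.

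Ctsa (chr2:164833730-164833797, + strand): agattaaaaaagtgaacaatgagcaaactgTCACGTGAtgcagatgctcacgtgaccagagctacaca

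Ctsd (chr7:142387889-142387956, - strand): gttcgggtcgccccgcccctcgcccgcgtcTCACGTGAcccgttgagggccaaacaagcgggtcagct

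Atp6v0d1 (chr8:105566031-105566098, - strand): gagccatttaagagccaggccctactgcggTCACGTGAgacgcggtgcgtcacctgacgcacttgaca

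Atp6v1a (chr16:44139354-44139421, - strand): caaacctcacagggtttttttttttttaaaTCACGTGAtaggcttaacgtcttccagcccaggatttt

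Lamp1 (chr8:13159103-13159168, + strand): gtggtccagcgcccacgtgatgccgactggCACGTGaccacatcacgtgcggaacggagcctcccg

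The first capital lies 4 bases before the start site in Atp6v0d1, 13 before it in Ctsa, 28 in Lamp1, 99 in Ctsd and 132 in Atp6v1a. These matches are letters in a reference genome and say nothing of binding in these mice.

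Across the 4 groups no member was called by edgeR's quasi-likelihood test, where 0.777% of all genes were, and 9 members had an unadjusted p under 0.05. In the single comparisons, Grn was the sole member called, higher in YAC128 mice given the scrambled oligonucleotide than in WT. Each oligonucleotide group differs from WT in genotype as well as in treatment. The count of members called was 0 of 39 for YAC128 aCSF against WT (0.0749% of all genes), 0 for AON12.1 against scrambled (0.14%), 0 for AON12.1 against aCSF (0.309%), 0 for scrambled against aCSF (0.0843%), 0 for AON12.1 against WT (0.562%) and 1 for scrambled against WT (0.169%). The members at an unadjusted p under 0.05 numbered 6, 3, 2, 5, 5 and 5 in that order. DESeq2 called Grn across the groups and in scrambled against WT, called Atp6v0d1 in AON12.1 against WT, and called 0 members in the other 4 comparisons. The share of all genes that DESeq2 called was not computed, so its calls have no background here. The median SE of a member was between 0.099 and 0.102 in the 6 comparisons. The groups of every member overlapped in all of them, and how often groups overlapped over all genes was not computed.

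Most members had values slightly lower in YAC128 aCSF than in WT mice, 32 of 39, with a median log2 fold change of -0.11, where the median of all genes was -0.00 and 49.3% of them were higher. By role, 14 of 15 V-ATPase members, 9 of 13 lysosomal members and 9 of 10 autophagy members were lower. None of these 39 differences passed the test. The 13 pan-neuronal markers (Snap25, Map2 and the like) were lower in the same comparison, 13 of 13 with a median of -0.20, and the no-feature share was higher in YAC128 aCSF. Markers of other cell types leaned the same way, with 12 of 13 lower for striatal projection neurons (median -0.27, 2 called), 13 of 14 for microglia (median -0.07), 9 of 12 for astrocytes (median -0.07) and 8 of 12 for oligodendrocytes (median -0.15). Member directions were not counted with a marker level in the fit, and the part of these markers in those directions was not tested. With that share in the fit, 23 of 39 members were lower and the median was -0.02. In bulk tissue, fewer cells of a type and less RNA per cell cannot be told apart. Among 129 tested genes of the same pathway outside the list, 62 were higher and 67 lower (median -0.01).

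With AON12.1 against aCSF, 30 of 39 members had higher values (median 0.06, all genes 0.00), and 24 with the no-feature share in the fit. With the scrambled oligonucleotide against aCSF, 23 were higher (median 0.04), and 17 with the share in the fit. Between AON12.1 and the scrambled oligonucleotide, 23 were higher (median 0.03) and 25 with the share in the fit. Beside these, all 13 striatal projection neuron markers had higher values with AON12.1 than with aCSF (median 0.42), as did 11 of 14 microglia markers. Member directions were not counted with a marker level in the fit, and the part of these markers in those directions was not tested. The comparisons share groups with each other and with the genotype comparison, so their directions are not independent.

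**Figure D1:**
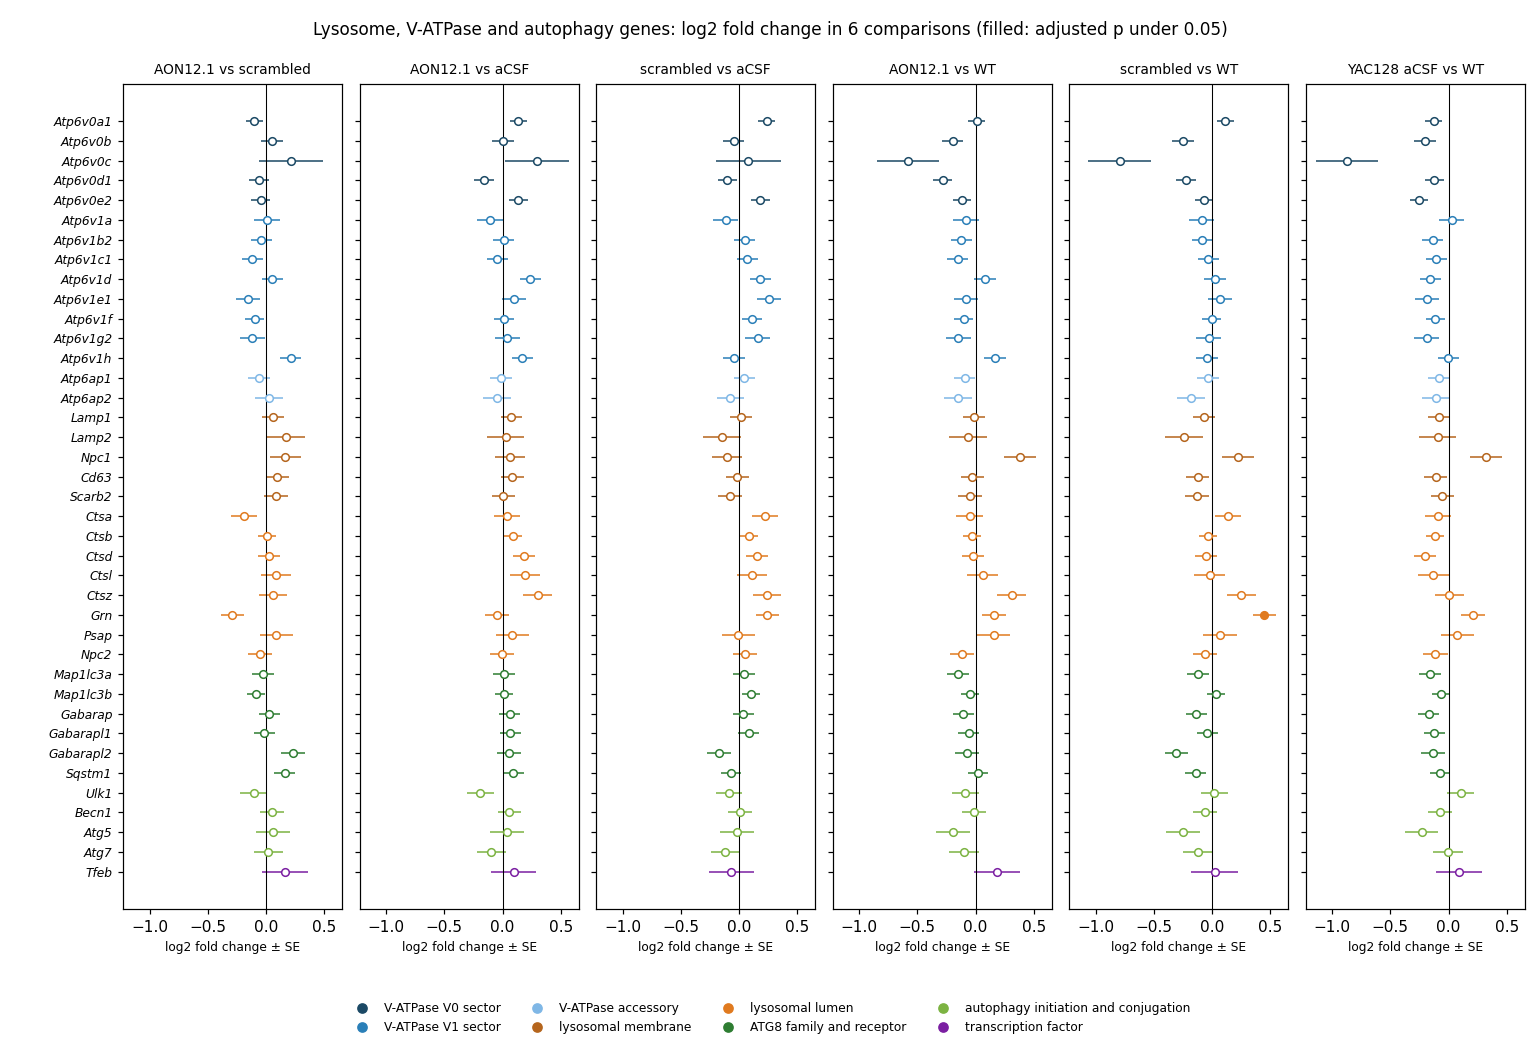
Log2 fold change (x axis, ± SE) of the 39 members (rows, coloured by role) in 6 comparisons of 8 libraries against 8, with filled points at an adjusted p under 0.05. Grn in scrambled against WT is the sole filled point, and in YAC128 aCSF against WT 32 of the 39 points lie left of 0.

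Among the V0 genes, Atp6v0c, which encodes the proteolipid that forms the proton-carrying ring, had the lowest log2 fold change of any member in YAC128 aCSF against WT. Its level ran from 56.6 to 128 CPM with AON12.1 (median 99.9), from 54.3 to 113 CPM with the scrambled oligonucleotide (median 91.7), from 35.5 to 143 CPM in YAC128 aCSF (median 76.7) and from 73.0 to 409 CPM in WT (median 113.8). The top value was WT replicate 4, and the next WT library had 187 CPM. The ranges overlapped, and the lowest library of each YAC128 group lay below every WT library. The log2 fold change was -0.87 ± 0.27 in YAC128 aCSF against WT, a ratio of 0.545 with a 95% interval from 0.375 to 0.793 (adjusted p = 0.179), and it was -0.43 without WT replicate 4 (adjusted p = 0.402). It was -0.02 within series 18 and -1.49 within series 19, which holds WT replicate 4 (adjusted p = 0.991 and 0.153). Its biological coefficient of variation between libraries was 0.361, above that of 97.5% of all genes and the highest of the 39.

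Atp6v0d1, the subunit that joins the ring to the central stalk, was lower with AON12.1 in value, at 341 ± 34.0 CPM, against 415 ± 42.9 CPM in WT (SD, n = 8 each). The AON12.1 libraries lay between 295 and 387 CPM (median 334) and the WT libraries between 341 and 465 CPM (median 413), and no AON12.1 library exceeded the WT median. The scrambled group had 356 ± 38.8 CPM and the YAC128 aCSF group 381 ± 41.5 CPM. The log2 fold change of AON12.1 against WT was -0.28 ± 0.08 (edgeR adjusted p = 0.108; DESeq2 -0.29, adjusted p = 0.0456). AON12.1 against scrambled gave -0.06 ± 0.08 (adjusted p = 0.935).

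The other V0 members were Atp6v0a1, the a subunit isoform of synaptic vesicles, Atp6v0b, a second proteolipid of the ring, and the small subunit gene Atp6v0e2. Atp6v0a1 had 402 ± 23.6 CPM with AON12.1, 432 ± 31.4 CPM with the scrambled oligonucleotide, 366 ± 41.1 CPM in YAC128 aCSF and 400 ± 34.4 CPM in WT. The scrambled libraries all exceeded the aCSF median (0.24 ± 0.07, adjusted p = 0.248). Atp6v0e2 had 361, 373, 329 and 391 CPM on average in the same groups, with YAC128 aCSF against WT at -0.25 ± 0.08 (adjusted p = 0.191). Atp6v0b had 473, 457, 471 and 543 CPM, and its log2 fold changes against WT were -0.20 with AON12.1 (adjusted p = 0.321), -0.25 with the scrambled oligonucleotide (0.362) and -0.20 with aCSF (0.364).

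In the V1 sector, Atp6v1d, a subunit of the rotating stalk, and Atp6v1e1, a subunit of the outer stalks that hold the pump still, had the 2 smallest p of the sector across the groups. Atp6v1d averaged 309 ± 37.0 CPM with AON12.1, 297 ± 40.0 CPM with the scrambled oligonucleotide, 261 ± 28.1 CPM in YAC128 aCSF and 292 ± 37.7 CPM in WT, and AON12.1 against aCSF gave 0.24 ± 0.09 (adjusted p = 0.286). Atp6v1e1 averaged 227 ± 35.0, 253 ± 37.4, 212 ± 33.8 and 241 ± 21.6 CPM in these groups, and scrambled against aCSF gave 0.26 ± 0.10 (adjusted p = 0.416). In both genes the aCSF group was the lowest, and its libraries overlapped those of every other group.

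The catalytic subunit gene Atp6v1a averaged 173 CPM with AON12.1, 172 CPM with the scrambled oligonucleotide, 186 CPM in YAC128 aCSF and 183 CPM in WT. Its partner in the catalytic ring, Atp6v1b2, averaged 515, 529, 511 and 561 CPM. The regulatory subunit genes Atp6v1c1 and Atp6v1h averaged 166, 180, 171 and 184 CPM, and 172, 149, 153 and 153 CPM. Atp6v1h was higher in 7 of 8 AON12.1 libraries than the scrambled median (0.21 ± 0.09, adjusted p = 0.618). The stalk genes Atp6v1f and Atp6v1g2, the second an isoform of neurons, averaged 400, 428, 396 and 429 CPM, and 257, 280, 250 and 286 CPM. Every one of these genes had an adjusted p above 0.4 in all 6 comparisons.

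The accessory subunits gave small differences. Atp6ap1, which helps assemble the pump, averaged 149 ± 19.5 CPM with AON12.1, 155 ± 18.1 CPM with the scrambled oligonucleotide, 151 ± 18.2 CPM in YAC128 aCSF and 159 ± 17.4 CPM in WT. Its AON12.1 against WT value was -0.09 ± 0.09 (adjusted p = 0.681). Atp6ap2, also known as the prorenin receptor, averaged 106 ± 23.1, 104 ± 11.9, 110 ± 16.5 and 118 ± 18.9 CPM, with scrambled against WT at -0.18 ± 0.12 (adjusted p = 0.640). The libraries of all groups overlapped in both genes.

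Among lysosomal membrane genes, Npc1, which exports cholesterol from the lysosome, was the sole one of 5 with a higher value in YAC128 aCSF than in WT. It ran from 44.4 to 63.1 CPM with AON12.1 (median 51.6), from 35.5 to 64.6 CPM with the scrambled oligonucleotide (median 44.8), from 35.5 to 66.2 CPM in YAC128 aCSF (median 44.2) and from 29.1 to 47.0 CPM in WT (median 40.6). All 8 AON12.1 libraries lay above the WT median, and the lowest AON12.1 libraries overlapped the highest of WT. The log2 fold change against WT was 0.38 ± 0.14 with AON12.1 (adjusted p = 0.186), 0.22 ± 0.14 with the scrambled oligonucleotide (adjusted p = 0.623) and 0.32 ± 0.14 with aCSF (adjusted p = 0.327). Its exons overlap those of Rmc1 on the opposite strand by 511 bases. Whether counting used strand is unknown here, so reads of that stretch may have been assigned by strand or set aside as ambiguous.

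Lamp2, a membrane glycoprotein that also serves chaperone-mediated autophagy, averaged 39.5 ± 10.0 CPM with AON12.1, 34.6 ± 6.67 CPM with the scrambled oligonucleotide, 38.2 ± 9.36 CPM in YAC128 aCSF and 40.7 ± 10.0 CPM in WT, with 14 to 61 counts per library. Its scrambled against WT value was -0.24 ± 0.17 (adjusted p = 0.651). Lamp1, the most used marker of the lysosomal membrane, averaged 253, 243, 240 and 254 CPM. The tetraspanin gene Cd63 averaged 114, 106, 107 and 116 CPM, and Scarb2, which carries glucocerebrosidase to lysosomes, 91.6, 86.1, 90.9 and 93.8 CPM. None of these 4 genes had an unadjusted p under 0.05 across the groups.

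Grn encodes progranulin, a secreted and lysosomal glycoprotein of microglia and neurons. It ran from 49.5 to 81.3 CPM with AON12.1 (median 66.6), from 58.0 to 95.8 CPM with the scrambled oligonucleotide (median 82.5), from 55.4 to 78.6 CPM in YAC128 aCSF (median 66.3) and from 56.4 to 65.4 CPM in WT (median 58.1). In the scrambled group 7 of 8 libraries exceeded the highest WT library, and replicate 2, at 58.0 CPM, lay within the WT range. Grn averaged 81.0 ± 12.2 CPM in YAC128 mice given the scrambled oligonucleotide, against 59.4 ± 3.49 CPM in WT (SD, n = 8 each). These groups differ in both genotype and oligonucleotide, which this comparison cannot tell apart. On the log2 scale the difference was 0.45 ± 0.10 (edgeR adjusted p = 0.0444), a ratio of 1.37 with a 95% interval from 1.19 to 1.57.

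The call sits close to the threshold: in 32 fits that each left out 1 library it held in 20, with adjusted p from 0.00702 to 0.123. Within series 18 and 19 the value was 0.46 and 0.44, and neither was called (adjusted p = 0.701 and 0.325). Series 18 held only 2 scrambled and 3 WT libraries. AON12.1 against scrambled gave -0.29 ± 0.10 (adjusted p = 0.456), scrambled against aCSF 0.24 ± 0.10 (adjusted p = 0.419), and YAC128 aCSF against WT 0.21 ± 0.10 (adjusted p = 0.393). Across the 4 groups the adjusted p was 0.0762. The summed level of 14 tested microglia markers (of 15 listed, none at 0) ran from 929 to 1516 CPM with AON12.1, from 990 to 1315 CPM with the scrambled oligonucleotide, from 701 to 970 CPM in YAC128 aCSF and from 839 to 1071 CPM in WT. With that level in the fit, Grn had 0.45 in scrambled against WT (adjusted p = 0.111). Exons of Fam171a2 overlap those of Grn by 68 bases on the opposite strand, and Fam171a2 had 0.08 ± 0.14 in the same comparison (adjusted p = 0.879).

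Ctsz, a cathepsin of microglia and macrophages, had higher values in both oligonucleotide groups. It ran from 75.4 to 122 CPM with AON12.1 (median 90.6), from 70.0 to 110 CPM with the scrambled oligonucleotide (median 97.5), from 56.7 to 94.5 CPM in YAC128 aCSF (median 80.2) and from 58.9 to 92.9 CPM in WT (median 81.0). In each oligonucleotide group 6 of 8 libraries lay above the WT median, and the ranges overlapped. AON12.1 gave 0.31 ± 0.12 against WT (adjusted p = 0.250) and 0.30 ± 0.12 against aCSF (adjusted p = 0.312), and the scrambled oligonucleotide gave 0.25 ± 0.12 and 0.24 ± 0.12 (adjusted p = 0.510 and 0.523). The microglia marker ranges above moved with these groups. The Ctsz value in AON12.1 against WT with that level in the fit is not given here, and no cause was tested.

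None of the other lumen genes was called. The aspartic protease gene Ctsd averaged 385 ± 64.3 CPM with AON12.1, 377 ± 45.8 CPM with the scrambled oligonucleotide, 339 ± 29.8 CPM in YAC128 aCSF and 391 ± 52.7 CPM in WT, with YAC128 aCSF against WT at -0.20 ± 0.09 (adjusted p = 0.376). The cysteine protease genes Ctsb and Ctsl averaged 511, 509, 480 and 520 CPM, and 94.4, 88.9, 82.1 and 89.6 CPM. Exons of Ctsb overlap those of Fdft1 by 774 bases on the opposite strand. Whether reads of that stretch were assigned by strand or set aside as ambiguous is not known. Ctsa, a carboxypeptidase that also protects other lysosomal enzymes, averaged 74.0, 83.9, 72.1 and 76.7 CPM, and its exons overlap those of Pltp by 495 bases on the opposite strand. Psap, the precursor of the saposins, averaged 124, 117, 117 and 111 CPM, and Npc2, which hands cholesterol to NPC1, 76.3, 79.3, 76.4 and 82.1 CPM.

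**Figure D2:**
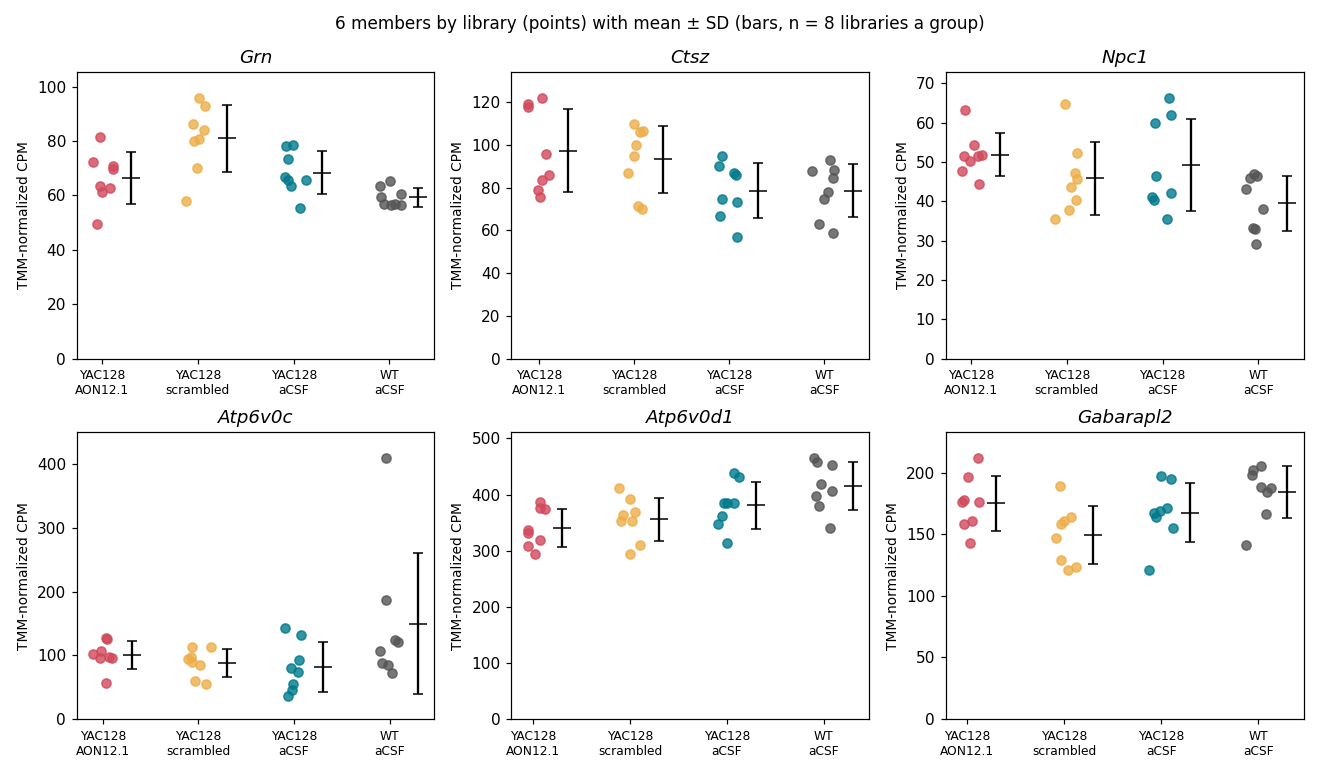
TMM-normalized CPM (y axis, from 0) of 6 members in each of 8 libraries per group (points), with the group mean ± SD beside them. Grn is highest with the scrambled oligonucleotide, at 81.0 ± 12.2 CPM, and WT replicate 4 stands alone at 409 CPM in the Atp6v0c panel.

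In the ATG8 family, all 6 genes including the receptor Sqstm1 had lower values in YAC128 aCSF than in WT (median -0.13). All 6 had higher values with AON12.1 than with aCSF (median 0.06), none past the test. All 6 were also called in the slope on the no-feature share (below), which was higher in YAC128 aCSF than in WT. With that share in the fit, 5 of the 10 autophagy members were lower in YAC128 aCSF than in WT. In the same fit, 6 of 10 were higher with AON12.1 than with aCSF. These 10 also hold Ulk1, Becn1, Atg5 and Atg7. Counts over the 6 ATG8 family and receptor genes alone were not computed with the share in the fit. Gabarapl2, an ATG8 member of the GABARAP branch, ran from 143 to 212 CPM with AON12.1 (median 176.5), from 121 to 189 CPM with the scrambled oligonucleotide (median 153), from 121 to 198 CPM in YAC128 aCSF (median 168) and from 141 to 206 CPM in WT (median 188). A single scrambled library lay above the WT median. The log2 fold change was -0.31 ± 0.10 for scrambled against WT (adjusted p = 0.274) and 0.23 ± 0.10 with AON12.1 relative to scrambled (adjusted p = 0.630). Sqstm1, which encodes p62, averaged 379 ± 51.0 CPM with AON12.1, 340 ± 36.4 CPM with the scrambled oligonucleotide, 356 ± 41.3 CPM in YAC128 aCSF and 374 ± 32.2 CPM in WT, with AON12.1 against scrambled at 0.16 ± 0.09 (adjusted p = 0.734). Its exons overlap those of Mrnip by 580 bases on the opposite strand, with the same limit as for Ctsb.

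Map1lc3a and Map1lc3b, the LC3 genes used to track autophagosomes, averaged 779, 795, 772 and 864 CPM, and 268, 284, 265 and 277 CPM in AON12.1, scrambled, YAC128 aCSF and WT libraries. Gabarap and Gabarapl1 averaged 363, 355, 347 and 390 CPM, and 769, 777, 735 and 800 CPM. Within each of these genes the largest gap between group means was smaller than the SD of the most variable group.

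The genes that start autophagy and attach ATG8 proteins had few counts and no call. Ulk1, the initiating kinase, averaged 48.7 ± 6.13 CPM with AON12.1, 52.5 ± 7.96 CPM with the scrambled oligonucleotide, 55.9 ± 9.86 CPM in YAC128 aCSF and 51.7 ± 7.22 CPM in WT, with AON12.1 against aCSF at -0.19 ± 0.11 (adjusted p = 0.543). Atg5, part of the enzyme complex that attaches ATG8 proteins to lipid, averaged 38.7 ± 7.55, 36.8 ± 5.62, 36.7 ± 10.0 and 44.1 ± 6.99 CPM. No scrambled library exceeded the Atg5 median of WT (-0.25 ± 0.15, adjusted p = 0.587). Atg7, which activates ATG8 proteins, averaged 44.4, 44.1, 47.7 and 47.7 CPM, and Becn1, a subunit of the lipid kinase that marks the forming membrane, 82.2, 79.3, 79.1 and 83.5 CPM.

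Tfeb, the transcription factor gene, ran from 13.3 to 24.6 CPM with AON12.1, from 13.1 to 25.4 CPM with the scrambled oligonucleotide, from 10.6 to 26.7 CPM in YAC128 aCSF and from 8.45 to 26.1 CPM in WT, which is 6 to 31 counts per library. Its largest value was 0.19 ± 0.20, for AON12.1 against WT (adjusted p = 0.704), which is smaller than its SE. The smallest difference detectable at this depth was not computed. The members with the palindrome had group values on both sides of 0: in YAC128 aCSF against WT, Ctsa had -0.09, Ctsd -0.20, Atp6v0d1 -0.12 and Atp6v1a 0.03.

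Of 146 other genes of the pathway, 129 were tested and 1 was called in any comparison. Laptm5, a lysosomal membrane protein of immune cells, rose to 85.3 ± 16.3 CPM with AON12.1, against 57.0 ± 15.2 CPM in YAC128 aCSF (0.57 ± 0.12, edgeR adjusted p = 0.0206). With microglia marker level in the fit it had 0.24 (adjusted p = 0.760), with the 2 groups alone 0.56 (adjusted p = 0.127), and within series 18 and 19 it had 0.69 and 0.56 (adjusted p = 0.106 and 0.333). Series 18 held only 2 AON12.1 and 4 aCSF libraries. The call was lost without YAC128 aCSF replicate 2, 5 or 6 and without AON12.1 replicate 2 or 5, with adjusted p up to 0.0813. Sort1, the sorting receptor that takes progranulin into lysosomes, had 221 ± 30.8 CPM with the scrambled oligonucleotide and 160 ± 32.3 CPM in YAC128 aCSF (0.47 ± 0.10, edgeR adjusted p = 0.0599; DESeq2 adjusted p = 0.00486). With microglia marker level in the fit, Sort1 had 0.28 (adjusted p = 0.694).

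By list, the called counts were 0 of 13 other V-ATPase genes, 0 of 34 lumen genes, 1 of 38 membrane and traffic genes and 0 of 44 autophagy genes, with 2 genes per list named by the smallest p across the groups. Zkscan3, a zinc finger repressor of autophagy genes, had 0.73 ± 0.21 in YAC128 aCSF against WT (adjusted p = 0.166). Atg10, which acts on ATG12, had -0.52 ± 0.16 in AON12.1 against aCSF (adjusted p = 0.16). Glb1, the lysosomal beta-galactosidase, had -0.63 ± 0.21 in the same comparison (adjusted p = 0.210), and Gaa, the acid alpha-glucosidase, -0.28 ± 0.11 in AON12.1 against WT (adjusted p = 0.219). Atp6v0a2, another a subunit, and Dmxl2, a protein that helps assemble the pump, had 0.23 in AON12.1 against aCSF (adjusted p = 0.428) and 0.24 in AON12.1 against WT (adjusted p = 0.265).

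To tell the neuronal pump genes from the glial hydrolases, each gene's level was set against marker levels between libraries of the same group. These slopes are log2 changes, with group means removed, per 10 percentage points of no-feature share or per log2 unit of a summed marker level. On the no-feature share, 14 of 39 members were called, all with lower levels at a higher share, where 14.6% of all genes were called and 5.08% were called with a negative slope. They were the pump genes Atp6v1b2 (-0.28 ± 0.05, adjusted p = 0.000253), Atp6v1a (-0.26), Atp6ap1 (-0.22), Atp6v0e2 (-0.18) and Atp6v1f (-0.18), the lumen genes Psap (-0.38 ± 0.09, adjusted p = 0.00433), Ctsd (-0.20) and Ctsb (-0.19), and all 6 ATG8 family and receptor genes.

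The ATG8 genes ran from -0.26 ± 0.06 for Gabarapl1 (adjusted p = 0.00131) to -0.16 for Map1lc3b. Of all members 33 had a negative slope, and the median was -0.15, against -0.02 over all genes. Tfeb (0.20 ± 0.15, adjusted p = 0.394) and Npc1 (0.08) were among the 6 with a positive slope. Among libraries with a share up to 25%, 0 members were called. Without WT replicate 1 the count was 7, without AON12.1 replicate 4 it was 8 and without YAC128 aCSF replicate 8 it was 9. Shares of all genes called were not computed for these fits, nor for the alternative slope fits below. A loss particular to the members cannot be told from a general one. The pan-neuronal markers moved with the share as well, 12 of 13 with a negative slope, as did 13 of 14 microglia markers, and their part in the member slopes was not tested.

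**Figure D3:**
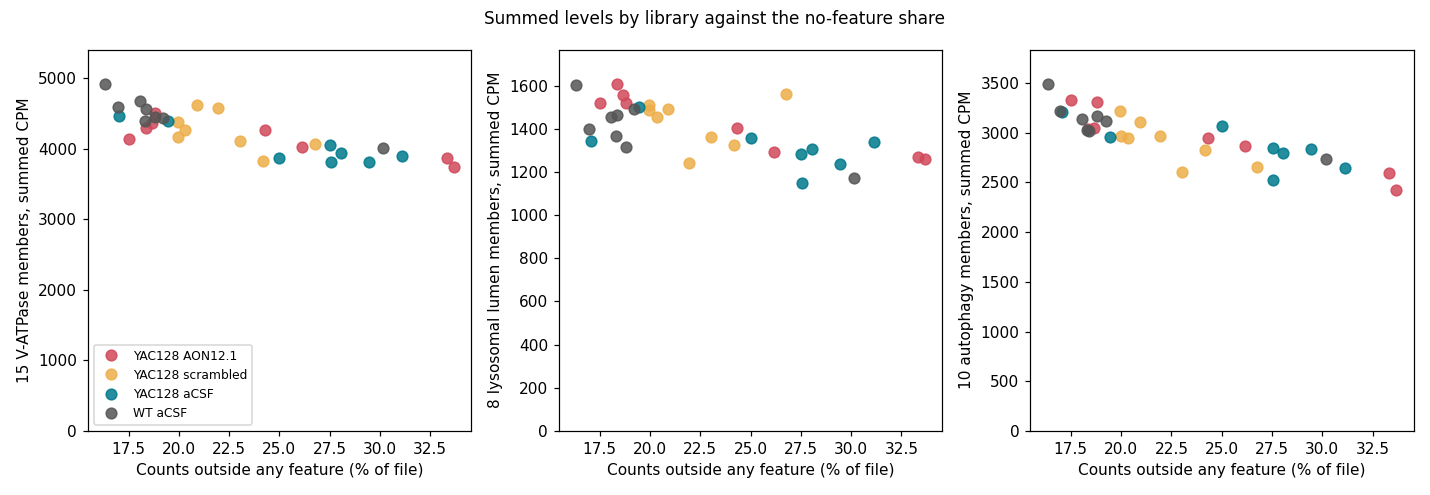
Summed CPM of the V-ATPase, lysosomal lumen and autophagy members (y axes, from 0) in each of 32 libraries against the share of counts in no feature (x axis, %). The AON12.1 libraries at 33.3% and 33.7% share lie low in all panels, and WT replicate 1, at 30.2%, is the lowest WT library in each.

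On the neuron marker level, 6 members were called, all positive, where 7.27% of all genes were called and 2.94% were called with a positive slope. Of the 6, 5 were V-ATPase genes: Atp6v1g2 (1.20 ± 0.35, adjusted p = 0.0262), Atp6v1b2 (1.02 ± 0.29, adjusted p = 0.0209), Atp6v0b (0.98), Atp6ap1 (0.98) and Atp6v0e2 (0.84). The other was Map1lc3a (1.15 ± 0.29, adjusted p = 0.00950). Of 32 fits that each left out 1 library, Map1lc3a was called in 32, Atp6v1b2 in 29, Atp6v0b in 25, Atp6v1g2 in 22, Atp6v0e2 in 18 and Atp6ap1 in 6, and the count of members called ran from 2 to 8. No lysosomal member was called. Of all members 5 had a negative slope. Tfeb (-1.78 ± 0.70, edgeR adjusted p = 0.121) and Npc1 (-1.18 ± 0.46, edgeR adjusted p = 0.118) were among them. The median slope was 0.82 over the 15 V-ATPase members, 0.21 over the 8 lumen members and -0.00 over all genes, and 14 of 15 V-ATPase members were positive, Atp6v0c excepted (-0.74 ± 1.03). Single genes of these roles overlapped, with Ctsd (0.61) and Ctsb (0.58) above Atp6v0a1 (0.49) and Atp6v1h (0.44).

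The neuron marker level was itself bound to other properties of the libraries. All 5 tested cortical excitatory neuron markers were called with a positive slope on it (median 8.17), and 12 of 13 striatal projection neuron markers had a negative one (median -0.48). With the no-feature share as a second covariate, 0 members were called, though Atp6v1g2 had 1.41 and Atp6v0b 1.33 (adjusted p = 0.131 and 0.0869), against 0.28 for Atp6v1b2. The count was 0 as well among libraries with a share up to 25%. Fits with the neuron and microglia marker levels together were also run, and their values are not given here.

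On the microglia marker level, the medians of the V-ATPase and lysosomal members stood in the other order. All 13 lysosomal members had a positive slope, with a median of 0.44 over the lumen genes and 0.34 over the membrane genes, against 0.07 over the V-ATPase members and 0.01 over all genes. Of the 15 V-ATPase members 12 were positive too, and the ATG8 and receptor genes ran from 0.18 (Gabarapl2) to 0.69 (Gabarap). Psap (0.51 ± 0.32), Ctsl (0.48 ± 0.28) and Ctsz (0.47 ± 0.27) led the lumen genes, and Grn had 0.01 ± 0.23. None of these passed the test (adjusted p from 0.288 to 0.992 over the lumen genes). Other cell types moved with the microglia level as well. Values were positive for 12 of 13 striatal projection neuron markers (median 0.60), 11 of 12 oligodendrocyte markers (median 0.48) and 5 of 8 endothelial markers (median 0.46), and their part in the member slopes was not tested. The sole member called was Gabarap (0.69 ± 0.16, adjusted p = 0.0441), where 0.421% of all genes were called. It was not called with the no-feature share as a second covariate. The count was also 0 without AON12.1 replicate 2, 3 or 4, scrambled replicate 6 or 8, YAC128 aCSF replicate 2, 3, 7 or 8, or WT replicate 1 or 8. Of the 129 other pathway genes tested, 2 were called, both of the lumen list, among them the cathepsin gene Ctss (1.12 ± 0.23, adjusted p = 0.0219).

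The difference between V-ATPase and lumen genes in these slopes was not itself tested. On the astrocyte and oligodendrocyte marker levels 0 members were called by edgeR, where 0% and 0.15% of all genes were, with 1 and 5 members at an unadjusted p under 0.05. The summed V-ATPase level was 2.92 ± 0.163 times the summed lumen level with AON12.1, 2.99 ± 0.317 times with the scrambled oligonucleotide, 3.07 ± 0.184 times in YAC128 aCSF and 3.21 ± 0.154 times in WT (SD, n = 8 each). Because counts are not compared between genes, this ratio is read only between groups. Its ranges overlapped between all groups. They ran from 2.68 to 3.11 with AON12.1 and from 2.61 to 3.68 with the scrambled oligonucleotide. In YAC128 aCSF the ratio ran from 2.85 to 3.33, and in WT from 2.97 to 3.42.

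**Figure D4:**
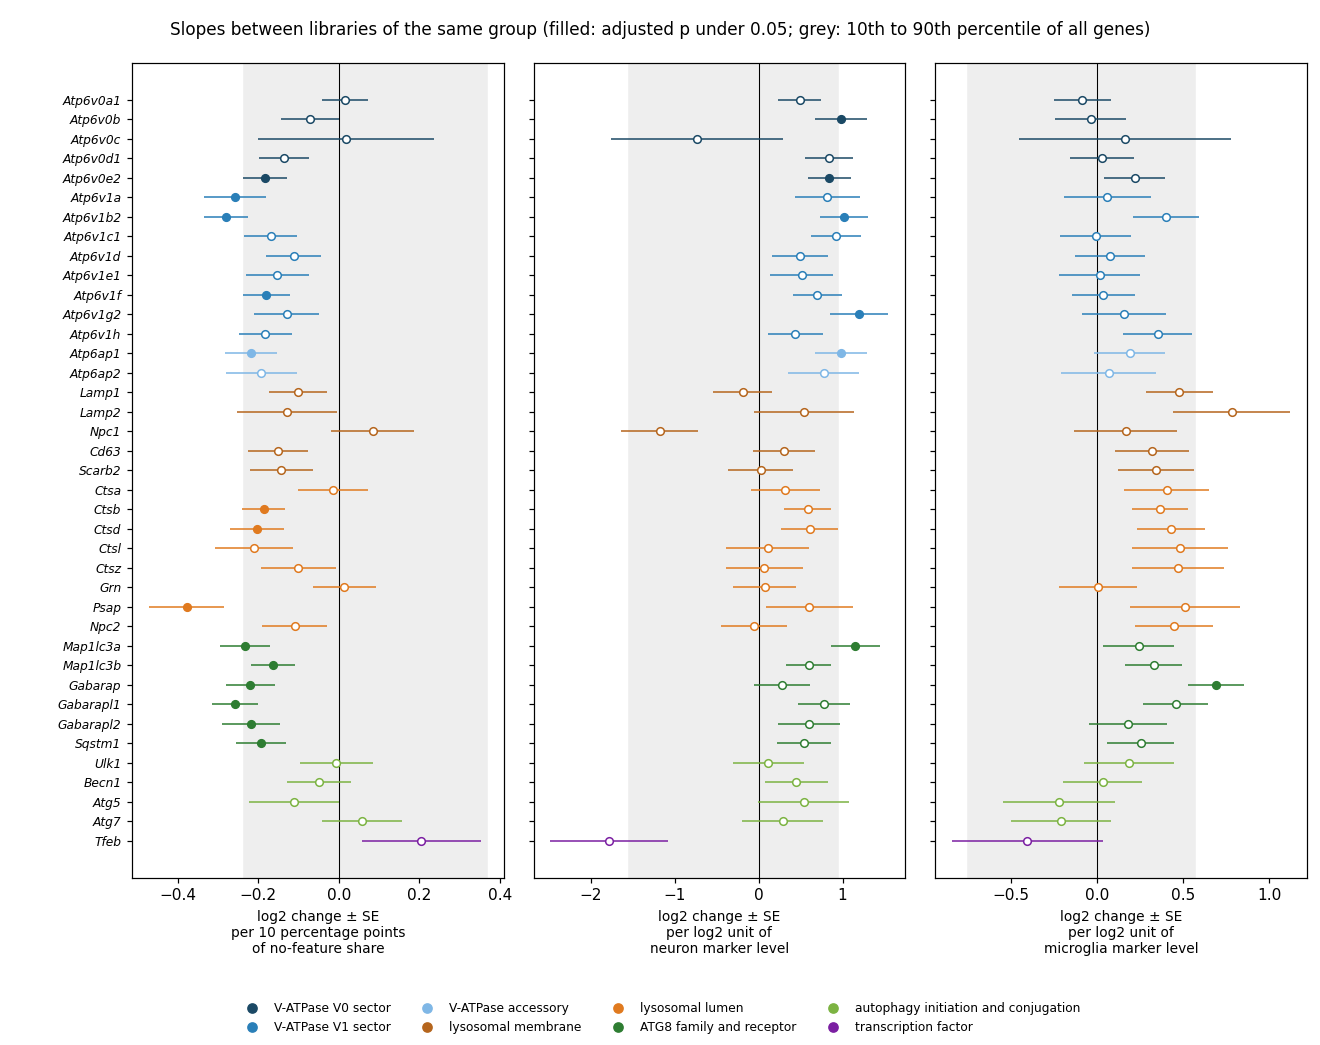
Log2 change (x axes, ± SE) of each member between libraries of the same group, per 10 points of no-feature share and per log2 unit of neuron and microglia marker level, with filled points at an adjusted p under 0.05 and the 10th to 90th percentile of all genes in grey. V-ATPase members centre on 0.82 in the neuron panel and on 0.07 in the microglia panel, lumen members on 0.21 and 0.44.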

How the data were processed

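Striatal RNA (100 ng per library) was reverse transcribed from barcoded oligo-dT primers with a molecular identifier, a modified mcSCRB-seq, per the labels' protocols. The submitters' processing notes name FastQC, cutadapt 2.10, STAR 2.7.5a, HTSeq 0.12.4 and the GRCm39 build. Collapsing of identifiers and use of strand are not stated in these sources. The deposited files, 1 for each library, hold raw whole-number counts per feature with no normalization by the authors. Summary lines (no feature, 22.8% on average; ambiguous, 1.59%; not unique, 8.80%) stayed out of library sizes and tests. Names and exon overlaps came from a GRCm38 annotation matched by identifier.

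The members and lists were chosen with earlier results of these data known. CPM was computed here. The fits used edgeR 4.0.16 (R 4.3.3): filterByExpr chose the genes (minimum count 10, minimum total 15), which were scaled by TMM and fitted with 1 coefficient per group over all 32 libraries. Tests were a 3-coefficient test across groups, 6 contrasts, and 5 slopes with 1 covariate each beside the group coefficients. Slope markers were 13 pan-neuronal, 15 microglia, 12 astrocyte and 12 oligodendrocyte genes, and a marker level is the log2 of their summed CPM. Endothelial and choroid plexus markers were measured as well: 8 endothelial genes summed to between 232 and 359 CPM, and the 2 tested of 7 choroid plexus genes to between 14.1 and 3245 CPM, highest in a YAC128 aCSF library, with group medians of 35.8 to 54.0 CPM. Members are given in full where called or among the 2 smallest p of their role. One pathway gene is not reported here. The scripts were tested on simulated counts. Alternatives were DESeq2 1.42.0, other size factors, no filter, covariates, either animal series, 2 groups alone, a share up to 25% (chosen after seeing the data) and leaving out each library. Labels give 1 animal per library, so p-values rest on the spread between mice.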

Additional observations from a re-analysis of the deposited data

Results flagged for a closer look

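In 3 of 156 sets of 8 libraries (39 members in 4 groups), 1 library lay far from the others by Dixon's criterion, which chance alone exceeds in about 1 of 20 sets, or 7.8 here. Atp6v0c had 56.6 CPM in AON12.1 replicate 2, and the next lowest AON12.1 library had 95.2 CPM. It had 409 CPM in WT replicate 4, and the next highest had 187 CPM. Becn1 had 56.5 CPM in YAC128 aCSF replicate 5, against at least 75.1 CPM in the others of its group. A processed copy of Atp6v0c, Atp6v0c-ps2, held 1 count in all libraries together.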

How the results depend on the processing

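No paired analysis was possible because the labels number animals and the groups share no numbers. The count of members called in scrambled against WT was 0, and Grn was lost, with no filter, with microglia level or the animal series as a covariate, in series 18 or 19 alone, with a share up to 25% and with the 2 groups alone (Grn adjusted p from 0.0557 to 0.701, value 0.43 to 0.46). DESeq2 called 1 member across the 4 groups and 1 in AON12.1 against WT. The call of Grn was lost without scrambled replicate 1, 5, 6 or 7, YAC128 aCSF replicate 4, or WT replicate 1, 2, 3, 4, 5, 6 or 8. Slope counts were 0 with a share up to 25%, a limit chosen after seeing the data (no-feature share, neuron and microglia slopes) and 0 with the share as a second covariate (neuron and microglia). Leaving out 1 library gave 0 to 1 calls across the groups and for scrambled against WT, 7 to 14 on the share, 2 to 8 on the neuron level and 0 to 1 on the microglia level. Shares of all genes called were not computed for the fits in this section. The neuron count was 2 without WT replicate 1 or 8, scrambled replicate 5, AON12.1 replicate 4 or YAC128 aCSF replicate 7 or 8, and 3 without scrambled replicate 2, YAC128 aCSF replicate 6 or AON12.1 replicate 5. Directions turned for the neuron slopes of Gabarapl1 (-0.029), Ctsb (-0.0098) and Ctsd (-0.056) with the share, for Atp6ap1 in AON12.1 against WT (0.14) and Atp6ap2 in scrambled against WT (0.17) in series 18, for the share slopes of Scarb2 (0.18) and Atp6ap2 (0.092) with a share up to 25%, and for that of Becn1, which ran from -0.068 to 0.00011, without WT replicate 1. With the animal series as a covariate Tfeb was called on the neuron level (-2.13). The causes were not tested. Counts of 6 to 31 limit Tfeb.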
